A study of Mus musculus with 5 samples.

Results

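The genes described here encode the mouse receptors for serotonin, noradrenaline and adrenaline, dopamine and histamine. They were chosen by symbol alone, as every protein-coding gene named Htr1 to Htr7, Adra1 or Adra2, Adrb, Drd1 to Drd5 or Hrh1 to Hrh4 in the GENCODE M21 annotation of GRCm38. That gave 32 of the 55471 genes in the count table: 14 serotonin, 9 adrenergic, 5 dopamine and 4 histamine receptor genes. Polyadenylated RNA of spinal cord tissue was sequenced from 2 Lhx1os -/- mice (KO) and 3 wild type mice (WT), all C57BL/6J males aged 3 months and labelled as resting, with no other treatment named. Lhx1os encodes a lncRNA, a transcript without a protein product, and the study's title links its loss to altered motor neurons and poorer locomotion. The KO line was made in fertilized eggs by cutting within exon 2 of Lhx1os with Cas9 and inserting a synthetic polyadenylation signal, so that transcripts end early. The allele is not restricted to a cell type, and the labels do not say how many founders were bred. Whole tissue was powdered, so in these bulk libraries fewer cells of a type and less RNA per cell cannot be told apart.

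Within the central nervous system, the cell bodies that make serotonin, noradrenaline and histamine, and most of those that make dopamine, lie in the brain. Serotonin, noradrenaline and dopamine axons descend the cord to sensory, autonomic and motor circuits. All of these receptors are G protein-coupled except the products of Htr3a and Htr3b, which are subunits of a cation channel opened by serotonin. Receptors coupled to Gs raise cyclic AMP, those coupled to Gi/o lower it and open potassium channels, and those coupled to Gq activate phospholipase C. On motor neurons, Gq-coupled serotonin and noradrenaline receptors raise excitability and promote persistent inward currents, while Gi/o-coupled receptors in the dorsal horn damp pain transmission.

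Some sequences bear on what a gene count of these receptors can tell. Transcripts of Htr2c, the most abundant member per length, are edited by adenosine deaminases at 5 adenosines in codons of the second intracellular loop, which lowers the coupling of the receptor. These bases, capitalised here, lie on the plus strand at chrX:147169665-147169721 (GRCm38, GENCODE M21 transcript sequence, coding exon), and gene-level counts do not separate edited from unedited transcripts.
Htr2c edited region: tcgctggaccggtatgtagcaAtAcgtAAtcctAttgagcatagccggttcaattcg
The receptors are also related to each other, and a read lying wholly within a stretch shared by a pair of them could not be assigned to either. Among the coding sequences of the 32 genes, compared in 496 pairs, the longest identical run was 30 bases, between Adrb1 (chr19:56723344-56723373) and Adrb3 (chr8:27227490-27227519). The next were 26 bases, between Adra2a (chr19:54046677-54046702) and Adra2c (chr5:35280357-35280382) and between Htr2a (chr14:74645056-74645081) and Htr2c (chrX:147169638-147169663). A read longer than 30 bases would thus reach past every shared coding run. The 3 runs, shown because they are the longest, carry no capitals.
Adrb1 and Adrb3: tgctggctgcccttcttcctggccaacgtg
Adra2a and Adra2c: gagtacaacctgaagcgcacgccgcg
Htr2a and Htr2c: gcgtccatcatgcacctctgcgccat
Members whose exons overlap another gene were Htr2b with Psmd1 (252 bases), Htr1b with D430036J16Rik (852 bases), Adrb3 with Gm45470 (839 bases), Drd5 with Gm26560 (1531 bases), Hrh3 with Gm17180 (349 bases), Adra1d with Gm14285 (147 bases) and Hrh2 with Gm16578 (145 bases). All 7 partners lie on the opposite strand. The partners of Adra1d, Hrh2 and Hrh3 had 0 counts in every library, and that of Drd5 had 0 or 1. The strand setting of the authors' counting is not given in the sources used here, so the values of these 7 members are uncertain. The overlap covered 48.57% of the exon bases of Drd5, the largest share, and 24.85% of those of Adrb3. It covered 11.83% of those of Htr2b, whose partner had 2368 to 2822 counts.

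Libraries held 15973063 to 19437533 counts, and 3 features of them touch the receptor results. Lhx1os had 13 and 11 counts in the KO libraries, against 56, 66 and 51 in the WT libraries, a log2 fold change of −2.13 (SE 0.28; edgeR adjusted p = 0.0589), with both KO libraries under the WT range, as labelled. Summed caudal Hox genes, 3 of 12 of which were abundant enough to test, stood at 12.02 and 72.5 CPM (counts scaled to library size) in KO replicates 1 and 2, against 15.3, 9.50 and 37.8 CPM in WT replicates 1 to 3. KO replicate 2 and WT replicate 3 thus held the most of these genes, which mark lumbar and sacral cord, while Hoxa13, Hoxc12, Hoxc13 and Hoxd12 were at 0 throughout. Sensory ganglion markers summed to 9.88 and 10.5 CPM in the KO libraries and to 10.9, 57.5 and 10.0 CPM in the WT libraries, with the nociceptor channel gene Scn10a at 15.6 CPM in WT replicate 2 and at most 0.123 CPM elsewhere. Motor neuron markers summed to 386.9 and 274.7 CPM in the KO libraries and to 356.8, 220.6 and 243.7 CPM in the WT libraries, so the genotypes overlapped and the first replicate of each was highest.

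Transcripts of 26 of the 32 receptor genes were abundant enough to test in the cord. Levels of different genes are compared as CPM per kilobase of annotated exon, averaged over the 5 libraries. Htr2c led with 11.1 CPM per kilobase, followed by Adra2a at 7.84, Htr7 at 7.25, Drd2 at 7.05 and Hrh3 at 6.36 CPM per kilobase, so each of the 4 families had a gene among the highest 5. These 5 genes held 51.1% to 57.0% of the summed receptor level in a library, and Htr2c alone 14.6% to 15.5%. The libraries' ranges for Htr2c lay above all of those for Adra2a, while Adra2a overlapped Htr7, Htr7 overlapped Drd2 and Drd2 overlapped Hrh3. Adra1b (4.37), Htr2a (4.10), Htr1a (3.21), Htr1b (3.07) and Htr3a (2.57 CPM per kilobase) formed the next stretch, again with overlapping neighbours, and lay below Hrh3. Of the 25 neighbouring pairs in the order, 20 overlapped. The order depends on annotated length: per kilobase of the longest transcript, the highest 5 genes were the same but Hrh3 (7.39) stood above Drd2 (7.05), and Adra1a moved from rank 14 to 8. Levels depend on it too: Htr2c rose from 11.1 to 21.2 by that length. Its longest transcript has 4883 bases, against 9328 of merged exon. The shares of the summed level given above hold only for merged exon length.

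**Figure D1:**
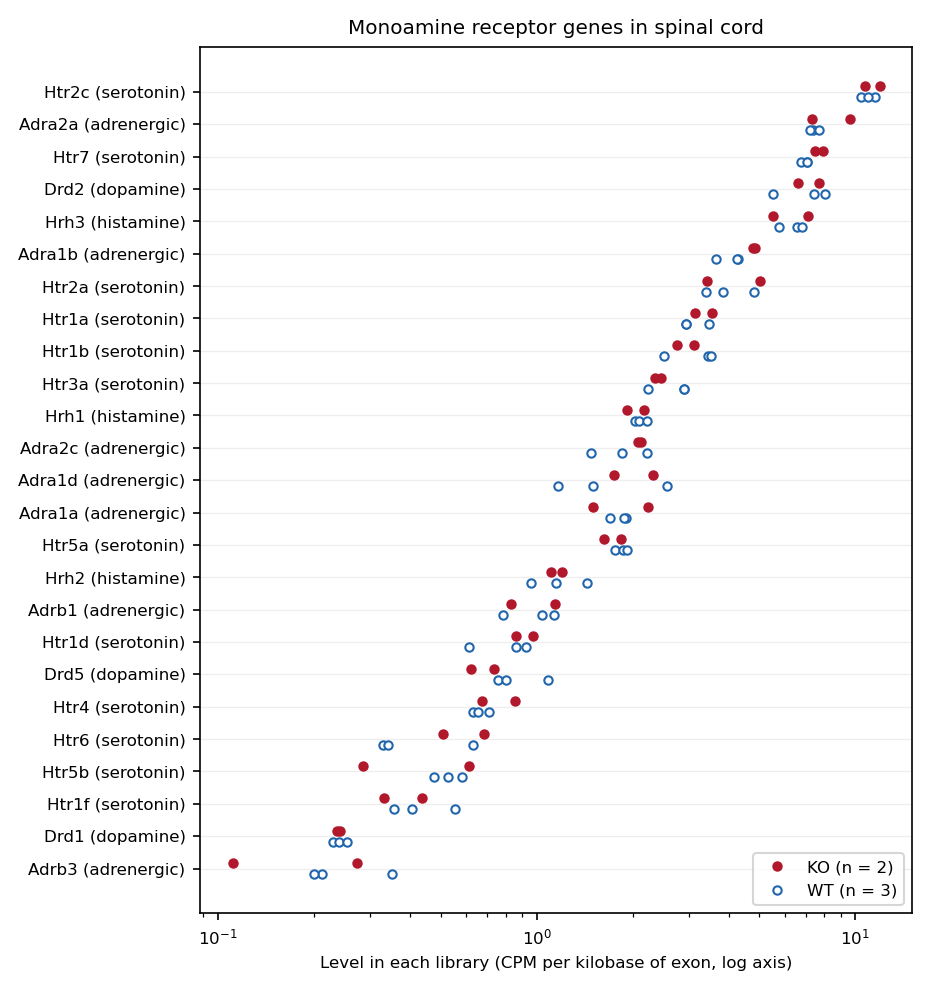
Level of 25 of the 26 tested receptor genes in every library, in CPM per kilobase of exon on a log axis; filled red points are the 2 KO libraries and open blue points the 3 WT libraries. Htr2c lies highest at 11.1 CPM per kilobase on average, and KO and WT points intermingle in nearly every line.

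No receptor gene passed the test of KO against WT. In edgeR's quasi-likelihood test over 16052 genes, 0 of the 26 tested members passed an adjusted p of 0.05, where 0.0187% of all genes did, and the members' adjusted p-values ran from 0.666 to 0.9999. At an adjusted p of 0.1 there were also 0 members, where 0.0934% of all genes passed. At an unadjusted p under 0.05 there were also 0 members, against 7.57% of all genes. DESeq2 called 0 members and 0.246% of all genes, and limma-voom 0 members and 0.00623% of all genes. Log2 fold changes of KO over WT for the members named here ran from −0.40 (Adrb3) to 0.43 (Htr6), with 13 members lower and 13 higher in KO and a median of 0.014, beside 0.0044 over all genes, of which 48.7% were lower in KO. The size of the difference, without its sign, had a median of 0.15 for members and 0.098 for all genes on the log2 scale. The median SE of the members was 0.19, larger than their median difference. Noise alone widens such differences at low counts, and genes of like abundance were not compared. The groups did not overlap for 3 members, Adra1b and Htr7 above and Drd5 below, where 24.9% of all genes had no overlap (12.9% above and 12% below). A difference that misses the threshold does not show equal levels, and the 95% intervals give the bounds: they lay within 1.5-fold in either direction for 15 members and within 2-fold for 22. Members past the wider bound included Adrb3, Htr5b and Htr6, each under 2 CPM on average.

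**Figure D2:**
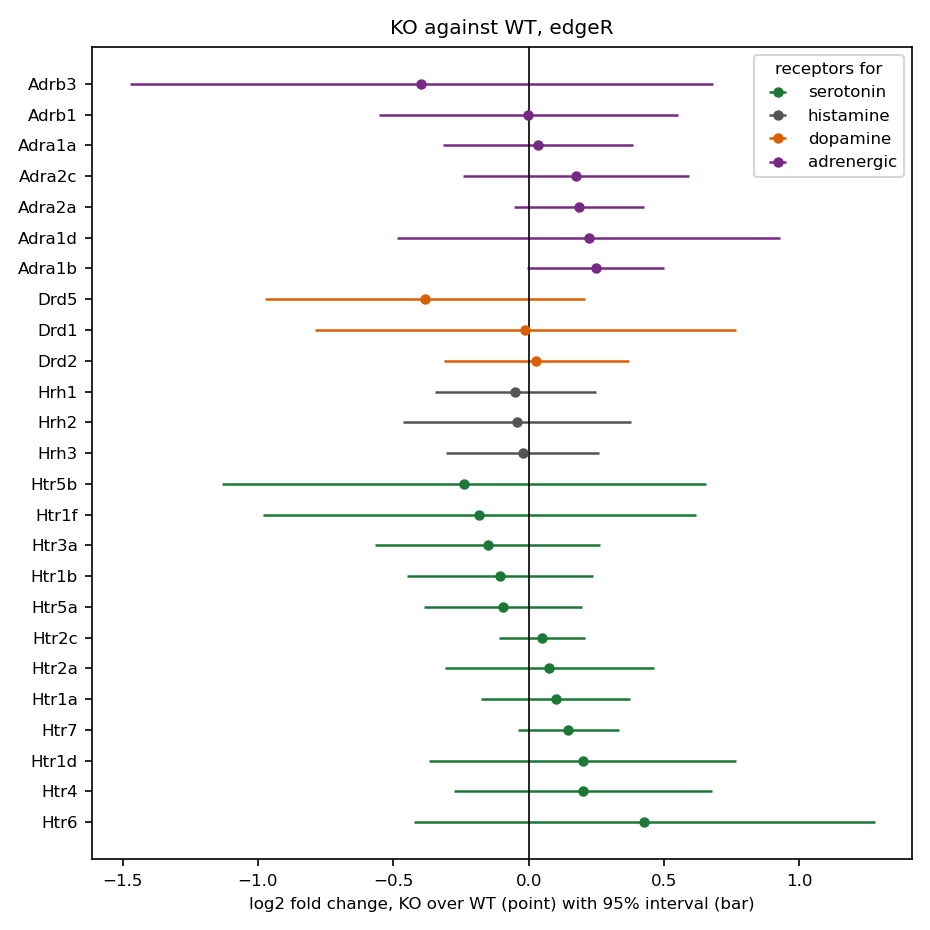
Log2 fold change of KO over WT for 25 of the 26 tested receptor genes (points, edgeR) with 95% intervals (bars), coloured by family. The interval of every gene includes 0, from −0.40 for Adrb3 to 0.43 for Htr6, and is narrowest for Htr2c.

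The summed receptor level was 73.7 and 77.6 CPM per kilobase in the KO libraries, against 71.4, 75.6 and 70.6 in the WT libraries. Serotonin receptor genes made up 48.8% of it in KO and 49.1% in WT, adrenergic genes 27.9% and 26.3%, dopamine genes 10.8% and 11.2% and histamine genes 12.6% and 13.4%. Adrenergic genes summed to 20.8 and 21.4 CPM per kilobase in KO, against 19.9, 19.3 and 17.9 in WT, without overlap. Serotonin genes summed to 36.65 and 37.05 in KO, against 35.34, 36.51 and 34.94 in WT, also without overlap but by a small margin. Among single genes, 24.9% of all those tested had no overlap between the groups, so such a separation is common in these libraries. The dopamine and histamine sums overlapped, and no family sum was tested. Grouped by the coupling of the receptor, the 13 Gi/o genes summed to 33.5 ± 3.75 CPM per kilobase in KO (SD, n = 2) and 32.2 ± 2.503 in WT (SD, n = 3). The 7 Gq genes summed to 26.4 ± 1.49 in KO and 24.7 ± 1.19 in WT, and the 9 Gs genes to 12.9 ± 0.191 in KO and 12.4 ± 0.283 in WT. Differences between the genotypes were smaller than the larger of the 2 SDs for Gi/o genes and a little larger for Gq and Gs genes, whose libraries overlapped.

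**Figure D3:**
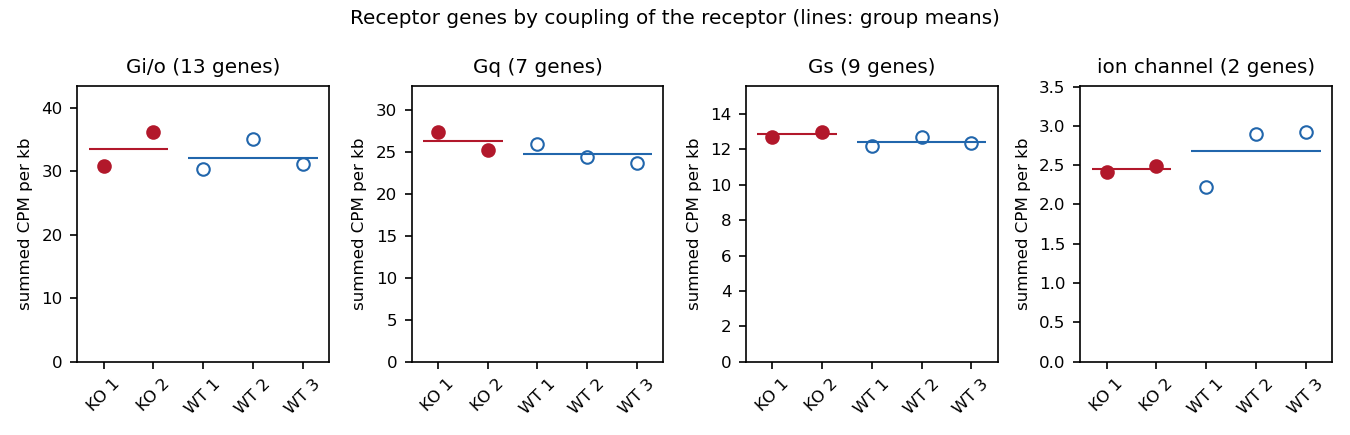
Summed level of the receptor genes of each coupling class in every library, in CPM per kilobase of exon from 0, with lines at the group means (filled red KO, open blue WT). The ion channel genes Htr3a and Htr3b hold the least, at 2.45 in KO and 2.68 in WT, and libraries of the genotypes overlap in every class.

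Among the Gq-coupled receptors, Htr2c (ENSMUSG00000041380, chromosome X from 146962513 to 147197277) had 100.2 and 111 CPM in the KO libraries and 96.9, 107 and 102 CPM in the WT libraries. Its log2 fold change of 0.049 (SE 0.071; 95% interval −0.11 to 0.21; edgeR adjusted p = 0.892) was the most tightly bounded of all members, and the KO and WT libraries interleaved. Adra1b, an alpha-1 adrenergic receptor (ENSMUSG00000050541, chromosome 11 from 43774606 to 43901210), had 16.4 and 16.2 CPM in KO, against 14.5, 14.4 and 12.3 CPM in WT. Both KO libraries lay above all WT libraries, and the log2 fold change was 0.25 (SE 0.11; 95% interval −0.0065 to 0.50; edgeR adjusted p = 0.666), the smallest p-value of any member and short of the threshold. Hrh1, the histamine receptor blocked by the classic antihistamines, had 9.63 and 8.56 CPM in KO and 9.04, 9.30 and 9.91 CPM in WT, with overlapping groups. Htr2b, the third member of the serotonin receptor subfamily of Htr2a and Htr2c, had 2 and 0 counts in KO and 1, 0 and 0 counts in WT, too few to test.

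The remaining Gq-coupled genes differed more between libraries of a genotype than between genotypes. Htr2a, the serotonin receptor targeted by psychedelic drugs, had 28.2 and 19.3 CPM in KO and 27.0, 19.1 and 21.6 CPM in WT. Adra1a had 19.6 and 13.1 CPM in KO and 16.7, 14.8 and 16.4 CPM in WT, and Adra1d 4.42 and 3.31 CPM in KO and 4.88, 2.86 and 2.22 CPM in WT. For Htr2a and Adra1a the highest library was KO replicate 1, followed by WT replicate 1, and for Adra1d the order of those 2 was turned. The same 2 libraries held the most motor neuron marker RNA, such as Chat, the acetylcholine synthesis enzyme (41.8 and 26.9 CPM in KO; 37.3, 25.5 and 30.0 CPM in WT), and Slc5a7, the choline transporter (146.8 and 101 CPM in KO; 143.8, 81.6 and 96.0 CPM in WT). These receptor genes were set beside the marker list after their values were seen, 5 libraries are too few for a correlation, and the part of motor neuron content in their levels was not tested. KO replicate 1 was also above KO replicate 2 for vascular markers, with mural cell markers summing to 273.4 and 179.4 CPM in KO and to 209.3, 248.3 and 268.0 CPM in WT, and endothelial markers to 308.1 and 178.4 CPM in KO and to 187.1, 242.9 and 249.3 CPM in WT. The part of vascular content was not tested either. Within-group coefficients of variation were 21.4% for Htr2a, 17.3% for Adra1a and 34.5% for Adra1d, where counting error alone gives 5.07%, 6.05% and 12.9%.

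**Figure D4:**
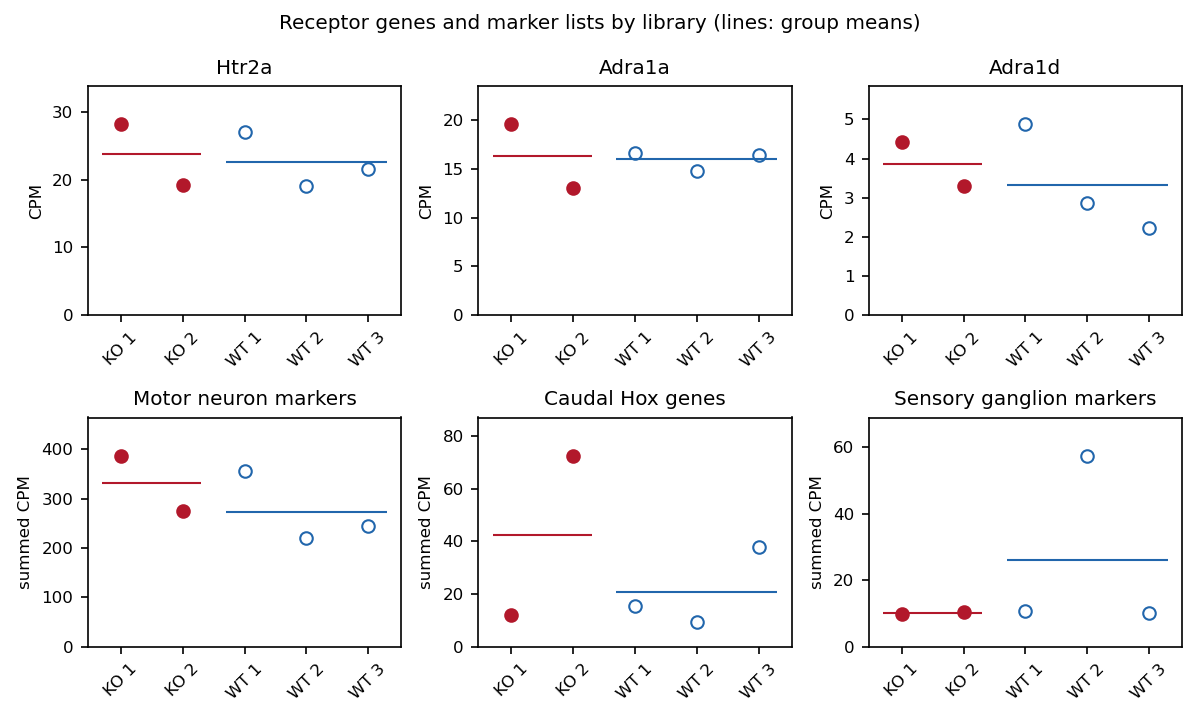
CPM of Htr2a, Adra1a and Adra1d (top) and summed CPM of motor neuron markers, caudal Hox genes and sensory ganglion markers (bottom) in every library, from 0, with lines at the group means. Htr2a reaches 28.2 CPM in KO replicate 1 and 27.0 CPM in WT replicate 1, the libraries with 386.9 and 356.8 CPM of motor neuron markers.

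The Gi/o-coupled receptors were led by Adra2a (ENSMUSG00000033717, chromosome 19 from 54044151 to 54048982), the alpha-2 receptor through which clonidine acts on the cord. It had 35.3 and 46.4 CPM in KO, against 35.7, 37.2 and 34.9 CPM in WT. KO replicate 2 stood above every other library and KO replicate 1 within the WT range, giving a log2 fold change of 0.18 (SE 0.11; 95% interval −0.055 to 0.42; edgeR adjusted p = 0.727). Without KO replicate 2 it was −0.026. KO replicate 2 also held the most caudal Hox RNA, while WT replicate 3, next in caudal Hox RNA at 37.8 CPM, had the lowest Adra2a. With a covariate for position along the cord, from Hox genes, the log2 fold change was 0.14 (edgeR adjusted p = 0.769). That fit rests on 3 caudal genes and leaves 2 residual degrees of freedom, and the part of position in the Adra2a values was not tested. Adra2c, a related autoreceptor gene, had 7.30 and 7.19 CPM in KO and 5.12, 7.66 and 6.40 CPM in WT, with KO inside the WT range. Adra2b was near the floor, with 3 and 10 counts in KO and 4, 7 and 6 counts in WT.

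Drd2, the dopamine receptor blocked by antipsychotic drugs, had 16.8 and 19.6 CPM in KO and 14.0, 20.5 and 18.8 CPM in WT (log2 fold change 0.029, SE 0.15; 95% interval −0.31 to 0.37; edgeR adjusted p = 0.979). Hrh3, the histamine receptor that acts as a presynaptic brake, had 17.3 and 22.4 CPM in KO and 20.7, 21.5 and 18.2 CPM in WT (−0.022, SE 0.13; 95% interval −0.30 to 0.26; edgeR adjusted p = 0.981). For both genes the KO libraries lay on either side of the WT mean. The other members of this coupling class in their families were barely detected: Drd3 had 0 and 4 counts in KO and 0 in each WT library, Drd4 had 1 count in each KO library and 1, 3 and 4 counts in WT, and Hrh4 had 1 count in KO replicate 2 and 0 elsewhere.

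Of the Gi/o-coupled serotonin receptors, Htr1a had 14.1 and 15.9 CPM in KO and 13.2, 15.6 and 13.2 CPM in WT. Htr1b, a brake on serotonin and glutamate release, had 14.7 and 13.0 CPM in KO and 16.2, 16.6 and 11.8 CPM in WT. Htr5a had 9.88 and 8.75 CPM in KO and 9.46, 10.1 and 10.3 CPM in WT. The groups overlapped for all 3 genes, and their log2 fold changes were 0.10 (SE 0.12), −0.11 (SE 0.15) and −0.096 (SE 0.13). For Htr5a the 95% interval was −0.39 to 0.20 (edgeR adjusted p = 0.885). Htr1d, a target of the triptans, was lower in abundance, with 2.76 and 3.13 CPM in KO and 1.96, 2.76 and 2.96 CPM in WT. Htr1f had 0.859 and 1.13 CPM in KO and 1.43, 0.920 and 1.05 CPM in WT. Htr5b, a pseudogene in humans and not assigned to a coupling class here, had 0.552 and 1.19 CPM in KO and 1.13, 1.02 and 0.924 CPM in WT, so KO replicate 1 was lowest and KO replicate 2 highest.

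Htr7 led the Gs-coupled receptors (ENSMUSG00000024798, chromosome 19 from 35958734 to 36057507). It had 25.5 and 26.8 CPM in KO, against 23.9, 22.9 and 24.0 CPM in WT. Both KO libraries lay above all WT libraries by a small margin, with a log2 fold change of 0.15 (SE 0.084; 95% interval −0.040 to 0.33; edgeR adjusted p = 0.721). Its within-group coefficient of variation of 3.00% was below the 4.90% of counting error. Htr4 had 3.31 and 4.19 CPM in KO and 3.09, 3.47 and 3.20 CPM in WT (log2 fold change 0.20, SE 0.21; 95% interval −0.27 to 0.68; edgeR adjusted p = 0.843). Htr6, largely a receptor of the brain, had 1.60 and 1.19 CPM in KO and 0.774, 1.48 and 0.8003 CPM in WT (0.43, SE 0.38; 95% interval −0.42 to 1.28; edgeR adjusted p = 0.815). Neither separated the genotypes.

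Both Gs-coupled dopamine receptor genes were scarce, and the values of Drd5 are uncertain because its exons overlap those of Gm26560. Drd5 (ENSMUSG00000039358, chromosome 5 from 38319367 to 38322518) had 1.96 and 2.31 CPM in KO, against 2.38, 3.42 and 2.52 CPM in WT, with no overlap and a log2 fold change of −0.38 (SE 0.27; 95% interval −0.97 to 0.21; edgeR adjusted p = 0.761). The highest value came from WT replicate 2, the library with sensory ganglion RNA, and without it the log2 fold change was −0.20; the part of ganglion tissue in the difference was not tested. Drd1 had 0.859 and 0.875 CPM in KO and 0.833, 0.868 and 0.924 CPM in WT, so the groups coincided.

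The beta adrenergic receptor genes Adrb1 and Adrb3 were likewise low and ranked 17 and 26 of the 26 by level. Adrb1, the main beta receptor of heart and brain, had 3.86 and 2.81 CPM in KO and 3.51, 3.83 and 2.65 CPM in WT (log2 fold change −0.0010, SE 0.25). Adrb3, known from fat tissue, had 0.920 and 0.375 CPM in KO and 1.19, 0.715 and 0.677 CPM in WT (−0.40, SE 0.48; 95% interval −1.47 to 0.68; edgeR adjusted p = 0.864). Hrh2, the histamine receptor of the stomach that is also present in brain, had 6.56 and 7.13 CPM in KO and 5.71, 8.53 and 6.83 CPM in WT, with KO inside the WT range.

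Channel subunits were represented by Htr3a alone. Htr3a, which can form channels by itself, had 4.91 and 5.13 CPM in KO and 4.64, 6.03 and 6.03 CPM in WT (−0.15, SE 0.19; 95% interval −0.57 to 0.26; edgeR adjusted p = 0.865), and the groups overlapped. Htr3b, which needs Htr3a to form a channel, had 2 and 1 counts in KO and 0, 0 and 1 counts in WT.

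**Figure D5:**
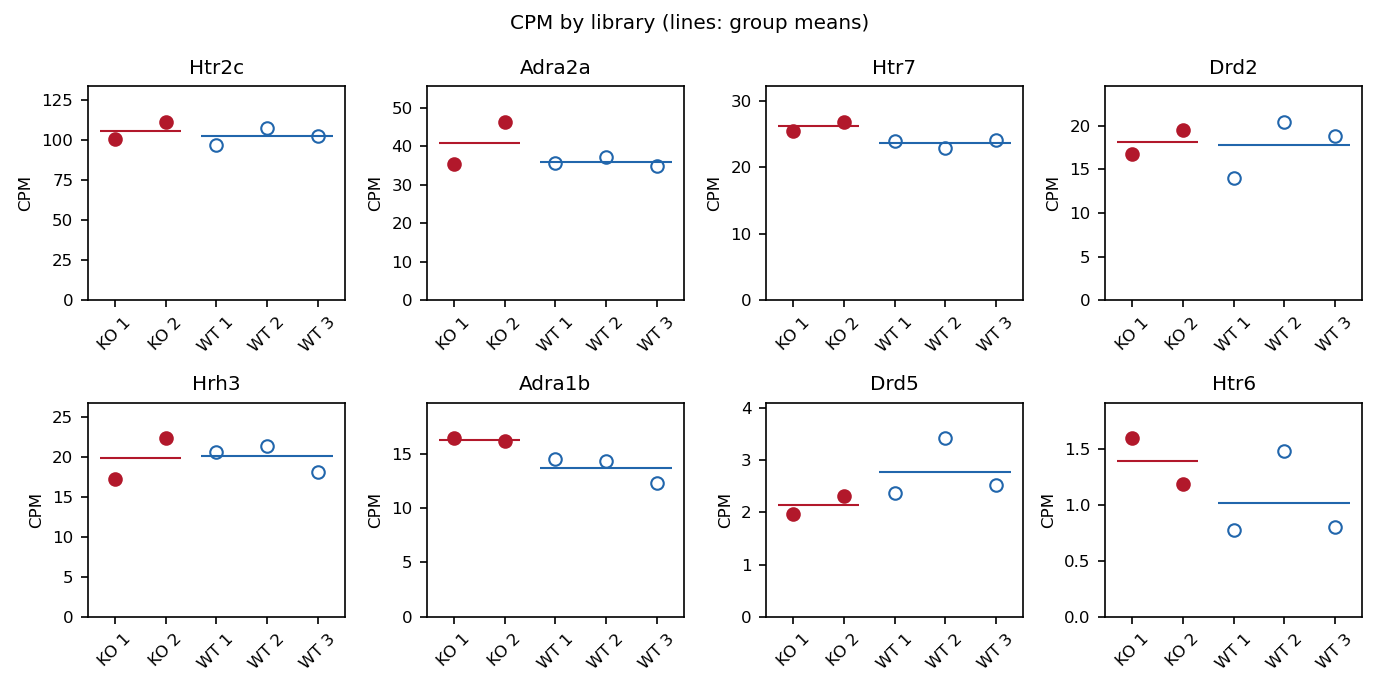
CPM by library, from 0, for the 5 receptor genes of highest level per kilobase, for Adra1b and Drd5 and for Htr6, the member of highest fold change; filled red points are KO, open blue points WT and lines the group means. The groups do not overlap for Htr7, Adra1b and Drd5, and none of the 8 genes passed the test.

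Across all members, differences between the 2 KO animals were often larger than those between genotypes. For 18 of the 26 tested members (69.2%) the KO libraries differed from each other by more than the KO mean differed from the WT mean on the log2 scale, beside 57.4% of all tested genes. A difference between 2 single libraries carries more noise than one between group means. It would thus often be the larger even without an effect of genotype, and these shares do not measure such an effect. Within groups, the spread exceeded counting error for 20 members and exceeded it by more than 2 times for 8. The same share was not computed over all genes. Across the whole table, libraries of a group also differed by more than counting noise (chi-square per degree of freedom 4.01 to 7.47). The counts therefore do not set the receptor genes apart.

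No gene that makes, stores, takes up or breaks down the monoamines passed the test either. Of the 26 listed genes 17 were tested, 8 lower and 9 higher in KO, and 0 passed in edgeR, limma-voom or DESeq2. In edgeR, 2 of the 17 had an unadjusted p under 0.05, beside 7.57% of all genes. Those 2 were Slc29a4, a low-affinity monoamine transporter (691 and 667 counts in KO; 646, 596 and 461 in WT; log2 fold change 0.38, SE 0.12; edgeR adjusted p = 0.520), and Cyb561, which supplies electrons for noradrenaline synthesis (0.19, SE 0.074; edgeR adjusted p = 0.626). Without WT replicate 1, Slc29a4 passed (0.51, SE 0.087; edgeR adjusted p = 0.0359). The aldehyde dehydrogenase gene Aldh2 followed at 0.14 (SE 0.064). The degrading enzymes were well expressed and close between genotypes, with log2 fold changes of −0.033 for Maoa (SE 0.081), −0.095 for Maob (SE 0.097) and 0.069 for the histamine methyltransferase Hnmt (SE 0.12). Genes of the tetrahydrobiopterin cofactor did not pass either, at 0.33 for Gch1 (SE 0.28) and −0.12 for Pts (SE 0.085). Those of Spr and Qdpr were 0.099 (SE 0.095) and −0.034 (SE 0.056). For Pts both KO libraries (23.4 and 22.6 CPM) lay below all WT libraries (25.05, 25.7 and 24.3 CPM). Of the 17 tested genes of the list, 5 had no overlap between groups, beside 24.9% of all genes.

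Transcripts of the synthetic enzymes of the transmitters were sparse in the cord. Th, the first enzyme of dopamine and noradrenaline synthesis, had 36 and 57 counts in KO and 33, 90 and 40 in WT, and Tph2, its serotonin counterpart, 14 and 5 counts in KO and 5, 20 and 8 in WT. Dbh, which makes noradrenaline, had 2 and 3 counts in KO and 6, 25 and 0 in WT, and the vesicular transporter gene Slc18a2 had 2 and 1 in KO and 2, 30 and 5 in WT. WT replicate 2 was highest for all 4 of these genes, and it was the library with sensory ganglion RNA. That library also had the highest sum of rostral Hox genes, at 240 CPM. The sums were 197.1 and 184.6 CPM in KO and 198.3 and 165.6 CPM in WT replicates 1 and 3. The part of ganglion tissue or of cord position in these counts was not tested. The decarboxylase gene Ddc was more abundant at 229 and 217 counts in KO and 337, 296 and 228 in WT (−0.25, SE 0.15). Slc18a1, the other vesicular transporter gene, had 18 and 16 counts in KO and 47, 25 and 21 in WT (−0.75, SE 0.42), Slc22a3 had 11 and 9 in KO and 4, 12 and 5 in WT (0.63, SE 0.52), and the histamine synthesis gene Hdc 37 and 23 in KO and 25, 27 and 38 in WT (0.11, SE 0.34). None of these passed. The plasma membrane transporter genes Slc6a2, Slc6a3 and Slc6a4, with at most 10 counts in a library, and Tph1 and Slc22a2, with at most 7, were not tested, and Pnmt was at 0 throughout.

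Signalling genes downstream of the receptors were abundant and also without a call. Of 24 tested G protein subunit genes, 11 were lower and 13 higher in KO. Their log2 fold changes had a median of 0.0066, with 0 passing in edgeR, limma-voom or DESeq2. In edgeR, 1 of the 24 had an unadjusted p under 0.05, beside 7.57% of all genes. That was Gnai1, an inhibitory alpha subunit (−0.15, SE 0.069; edgeR adjusted p = 0.657), followed by Gnai3 (−0.14, SE 0.077) and Gnb4 (−0.14, SE 0.088). The stimulatory subunit gene Gnas was the most abundant at 1794 CPM (0.079, SE 0.061), before Gnao1 (0.061, SE 0.062) and Gnb1 (0.0027, SE 0.053).

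The second messenger list held 40 tested genes, 18 lower and 22 higher, with a median of 0.014 and 0 passing in edgeR, limma-voom or DESeq2. In edgeR, 3 of the 40 had an unadjusted p under 0.05, beside 7.57% of all genes. These were Creb1, a transcription factor activated by cyclic AMP (653 and 782 counts in KO; 946, 982 and 927 in WT; −0.29, SE 0.097; edgeR adjusted p = 0.560), the phosphodiesterase gene Pde4c (−1.14, SE 0.40) and Prkar1b, a regulatory subunit of protein kinase A (0.14, SE 0.057). The most abundant genes of the list, Prkar1a (−0.056, SE 0.054), Prkar1b and Prkacb (−0.065, SE 0.054), all encode subunits of that kinase. Among receptor regulators 31 were tested, 21 lower and 10 higher, with a median of −0.034 and 0 passing in the 3 tools. In edgeR, 1 of the 31 had an unadjusted p under 0.05, beside the same 7.57% of all genes. That was Grk5, a kinase that desensitises receptors (355 and 341 counts in KO; 404, 529 and 453 in WT; −0.29, SE 0.095; edgeR adjusted p = 0.560). Adar (0.16, SE 0.077) and Rgs6 (0.13, SE 0.070) came next by p-value, and the most abundant regulators were Gprasp1 (−0.055, SE 0.062), Arrb1 (−0.0033, SE 0.068) and Adarb1 (0.13, SE 0.075). Adar and Adarb1 encode the deaminases that edit Htr2c transcripts.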

How the data were processed

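Spinal cord RNA from 2 KO and 3 WT mice was sequenced by the authors from stranded mRNA libraries, per the labels' protocols. The deposited table holds unnormalised counts per gene. The submitters' processing notes name GRCm38 and, as tools, STAR 2.5.2b, HTSeq, cutadapt and Trimmomatic, while the annotation release and strand setting are not given in the sources read. GENCODE M21 matched 55230 of 55471 identifiers, and those without a match held 0.00196% of the counts.

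Groups came from the sample titles. The sample descriptions speak of mice and give each library a number of its own, so libraries were taken as separate animals; litters are not named. Libraries of a group differed by more than counting noise (chi-square per degree of freedom 4.01 to 7.47).

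Genes were filtered with filterByExpr (minimum count 10, minimum total 15), leaving 16052, and compared with edgeR 4.0.16 in R 4.3.3 (TMM factors, quasi-likelihood F test, no covariates, Benjamini-Hochberg threshold 0.05). CPM values are scaled by TMM factors, intervals of fold changes are 95%, and coefficients of variation are pooled within groups. Scripts were tested on simulated data. Alternatives were DESeq2 1.42.0, limma-voom (limma 3.58.1), other factors, filters and dispersions, a replicate block, a covariate for cord position (caudal minus rostral Hox genes) and each library left out. The transcript length alternative was chosen after seeing the data.

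Members and lists were chosen with earlier results of these data known. Members are named with values per library, except that the results of a few genes are not reported here. Full statistics go to members without overlap, the 5 of smallest p per direction and the 5 highest per kilobase, and each pathway list gives its 3 of smallest p and 3 most abundant genes.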

Additional observations from a re-analysis of the deposited data

How the results depend on the processing

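No receptor gene was called under any of the 13 alternative fits, nor at an adjusted p under 0.1; the lowest adjusted p of any member named here in any fit was 0.510 (Adra1b). The count over all genes, 3, became 6 with DESeq2 size factors, 96 with no filter beyond 1 count, 12 with robust dispersion, 40 in DESeq2, 1 in limma-voom, 0 with the position covariate and 15 at an adjusted p under 0.1, and ran from 0 to 58 with 1 library left out; the causes were not tested. Replicate numbers 1 and 2 occur in both genotypes, and libraries of the same number deviated from their group means together only weakly (r = 0.0579 and 0.00203). With 2 KO libraries the deviations of KO mirror each other, so the 2 values are not independent. They cannot decide whether the samples share more than a number. A replicate block called 25 genes and 0 receptor genes. That fit leaves 1 residual degree of freedom, and WT replicate 3, without a KO library of its number, does not inform its contrast. The median log2 fold change of members ran from −0.0025 to 0.058 without 1 library, the highest without WT replicate 2. Monoamine handling calls ran from 0 to 1 (Slc29a4, without WT replicate 1).

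The sign held for 12 of 26 members with each library left out, and turned for 14, of which 9 lay within 0.1 of 0 with all libraries. Their log2 fold changes ran from −0.29 to 0.29 for Adra1a, −0.0042 to 0.60 for Adra1d, −0.026 to 0.37 for Adra2a, −0.25 to 0.21 for Adrb1, −1.18 to 0.099 for Adrb3, −0.045 to 0.022 for Drd1, −0.11 to 0.15 for Drd2, −0.14 to 0.031 for Hrh1, −0.17 to 0.13 for Hrh2, −0.22 to 0.15 for Hrh3, −0.39 to 0.017 for Htr1f, −0.23 to 0.32 for Htr2a, −0.029 to 0.12 for Htr2c and −0.89 to 0.21 for Htr5b. Adrb1 also turned to 0.13 with the position covariate and Drd1 to 0.027 with the replicate block. The cause was not tested. Depth limits members under 2 CPM, whose intervals reach past 2-fold in several cases.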

Other observations

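Markers of the other cells of the cord were measured in the same fit. Oligodendrocyte precursor markers stood at 185.8 and 178.5 CPM in the KO libraries and at 225.0, 231.4 and 223.2 CPM in the WT libraries. For 4 of the 5 genes, Gpr17, Neu4, Pdgfra and Vcan, both KO libraries lay below all WT libraries and the unadjusted p was under 0.05, but 0 passed in edgeR. Over all genes, 12% lay below WT without overlap and 7.57% had an unadjusted p under 0.05. Gpr17, a receptor of precursors about to mature, had 39.9 and 48.8 CPM in KO, against 67.3, 69.5 and 67.3 CPM in WT (log2 fold change −0.62, SE 0.086; edgeR adjusted p = 0.0603). It passed in DESeq2 (−0.62, adjusted p = 1.57e-05), without a filter, with robust dispersion, with the replicate block and without WT replicate 1, and not in the other settings. Meningeal markers summed to 1016 and 1042 CPM in KO and to 1049, 1251 and 1521 CPM in WT, with 10 of 10 genes lower in KO, 0 passing in edgeR, DESeq2 or limma-voom and 2 at an unadjusted p under 0.05. Without WT replicate 1, Col1a1, Col1a2, Dcn and Lum passed in edgeR (log2 fold changes −0.89 to −0.60). Inhibitory neuron markers summed to 992.2 and 1028 CPM in KO and to 988.5, 1000 and 870.6 CPM in WT, and excitatory markers to 262.1 and 281.5 CPM in KO and to 274.2, 300.9 and 283.1 CPM in WT.

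Motor neuron markers were higher in KO for 7 of 8 genes, with 0 passing in edgeR, DESeq2 or limma-voom and 1 at an unadjusted p under 0.05, the vesicular acetylcholine transporter gene Slc18a3 (0.52). Chodl, a marker of fast motor neurons, passed without WT replicate 1 (0.78, edgeR adjusted p = 0.0277). Astrocyte markers summed to 5471 and 5285 CPM in KO and 5719, 5170 and 5906 CPM in WT, with 6 of 7 genes lower in KO and 0 passing in edgeR. Gjb6, an astrocyte connexin, had 84.2 and 90.5 CPM in KO, against 114.7, 108 and 110.5 CPM in WT (−0.35, SE 0.064; edgeR adjusted p = 0.176), and passed in DESeq2 (adjusted p = 0.0168) and without a filter (edgeR adjusted p = 0.0148). Microglial markers summed to 349.8 and 317.5 CPM in KO and 349.9, 328.2 and 382.1 CPM in WT. Endothelial markers were highest in KO replicate 1, with 0 passing in edgeR, DESeq2 or limma-voom and 0 at an unadjusted p under 0.05. Skeletal muscle markers summed to 16.7 and 6.00 CPM in KO and to 6.49, 6.03 and 3.32 CPM in WT. Mast cells are a source of histamine in other tissues. Their protease genes Cpa3, Cma1, Mcpt4 and Tpsb2 were at 0 counts in both KO libraries and at 0 to 4 counts in the WT libraries. Hdc, also on the mast cell list, had 37 and 23 counts in KO and 25, 27 and 38 in WT. The 7 genes of the list, 2 of them tested, summed to 25.0 and 32.3 CPM in KO and to 25.7, 33.6 and 37.1 CPM in WT.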
